A study of Mus musculus with 2 samples.

Results

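The genes described are the subunits and regulators of the mouse proteasome, the large protease that takes apart proteins marked with ubiquitin. They were chosen by name, as the protein-coding genes of the GENCODE M21 annotation whose symbol is Psm, a letter from a to g and a digit. The rule took 50 of 22028 annotated protein-coding genes. Of these 50 genes, 48 had a read in either library, 46 had reads in both and 45 had 10 or more reads over both libraries, which was the minimum for a test. Psma8 and Psmb11 had no read in either library, and Psmb9, Psme2b and Psmc3ip had too few to test. Psmc3ip matches the name but is a meiotic recombination factor and no part of the proteasome. Another 4 names that match belong to processed pseudogenes, namely Psmb5-ps, Psmb6-ps, Psmb6-ps2 and Psmb7-ps2, and none of them had a read.

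Long-read RNA sequencing was run on total RNA (2 µg per library) of gastrocnemius, the main calf muscle, from female B6CASTF1/J mice aged 25 days. Mice of this strain are hybrids of a laboratory and a wild-derived parent, so the reads of a gene sum both parental alleles. There was 1 group with 2 libraries, replicate 1 from the animal that the labels number 3 and replicate 2 from the animal numbered 4, and both carry the same donor record. There is therefore no contrast between conditions, and p-values measure only the difference between these 2 libraries, which may be technical. Replicate 1 held 1069771 reads and replicate 2 held 1557594 reads without spike-ins, so 3 reads, the limit that a count of 0 allows, correspond to 2.80 and 1.93 CPM (reads scaled to a library of 1000000 reads). The muscle label held: 6 skeletal muscle markers, led by Atp2a1, Acta1 and Ckm, summed to 323309 CPM in replicate 1 and 234426 CPM in replicate 2. Markers of slow fibres stood further apart, at 1056 and 8121 CPM over 8 genes, and those of red blood cells at 1235 and 414.7 CPM over 5 genes. In such bulk tissue, fewer cells of a type and less RNA per cell cannot be told apart.

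The proteasome consists of a barrel-shaped core and a cap at its ends. Outer rings of alpha subunits (Psma genes) gate the core, and inner rings of beta subunits (Psmb genes) hold its proteolytic sites. The cap binds ubiquitin chains, removes them, and unfolds and feeds in the substrate with a ring of ATPases (Psmc genes) set among scaffold and receptor subunits (Psmd genes). In cells exposed to interferon, 3 inducible beta subunits replace the catalytic ones and form the immunoproteasome, which favours peptides for antigen presentation. In skeletal muscle the ubiquitin-proteasome route is best known for the loss of protein during atrophy.

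Proteasome transcripts made up a small but well-covered part of the muscle's reads. They took 4735 reads in replicate 1 and 8343 in replicate 2, or 4426 and 5356 CPM (mean 4891 ± 657.7, SD, n = 2). Core and cap together held nearly all of them, and the inducible subunits very few. The 14 constitutive core subunits took 33.0% of the members' reads in replicate 1 (95% Clopper-Pearson interval 31.7 to 34.4%) and 43.7% in replicate 2 (42.6 to 44.7%). The 17 cap subunits took 62.2% (60.8 to 63.6%) and 51.2% (50.1 to 52.2%). The core share was thus higher and the cap share lower in replicate 2, with intervals that do not overlap. These intervals cover counting error only. In CPM the core stood at 1462 and 2340, while the cap stood at 2755 and 2740. Within the cap, the ATPases stood at 985.3 and 1135 CPM and the other subunits at 1770 and 1605 CPM, so its sum joins differences in opposite directions. The 7 assembly chaperones took 2.07% and 2.71% of the members' reads, and the 6 other activators and inhibitor 2.22% and 2.03%.

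**Figure D1:**
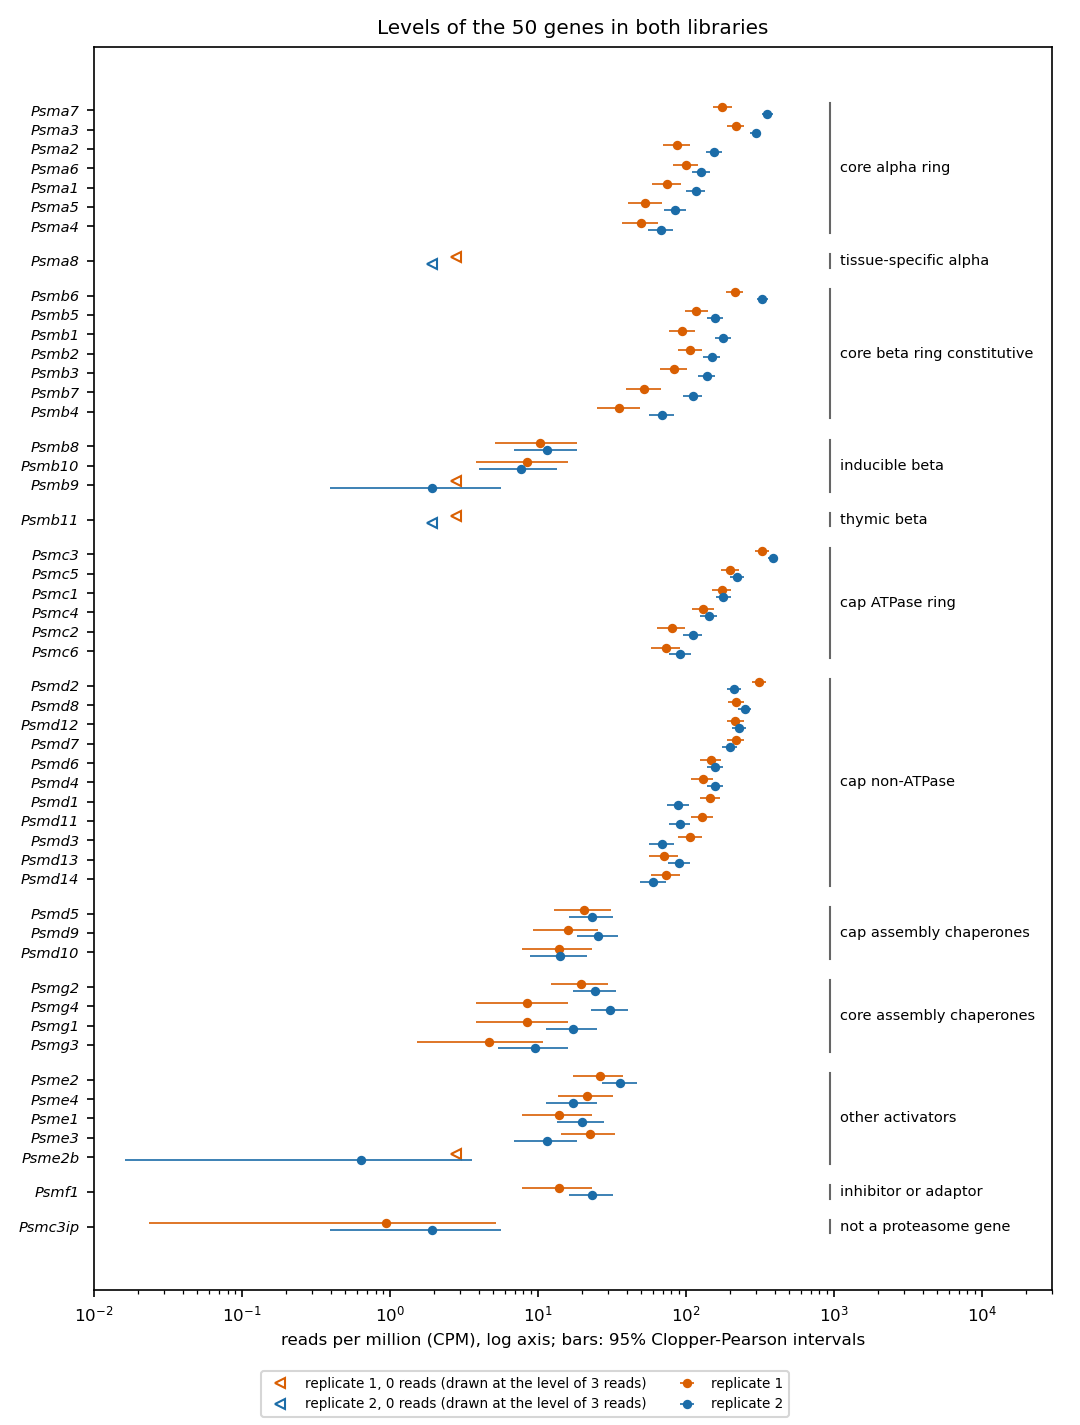
CPM (log axis) of all 50 genes in replicate 1 (orange) and replicate 2 (blue), grouped by role, with 95% Clopper-Pearson intervals as bars and open triangles at the level of 3 reads for genes with 0 reads. The constitutive core and cap subunits lie between 35.5 and 387.8 CPM, while chaperones, other activators and inducible subunits lie at or below 36.0 CPM.

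Levels are given as CPM, in which each long read is counted once whatever its length, and levels per kilobase of annotated transcript are named as such. Among alpha subunits, Psma7 had 176.7 and 355.7 CPM, Psma3 had 216.9 and 296.0 CPM, and Psma2 had 86.9 and 156.0 CPM. Each of them was higher in replicate 2. Psma4 was the least read alpha subunit, at 49.5 and 68.1 CPM. Among constitutive beta subunits, Psmb6, which carries the caspase-like site, led with 214.1 and 329.4 CPM. Psmb5, which carries the chymotrypsin-like site, had 117.8 and 158.6 CPM, and Psmb1 had 94.4 and 179.1 CPM. Psmb4 stood lowest of its ring with 35.5 and 68.7 CPM. The trypsin-like site belongs to Psmb7, at 52.3 and 111.1 CPM. The catalytic subunits therefore did not stand together: Psmb6 was above and Psmb7 below the ring's median of 128.1 CPM. Per kilobase, the mean levels of Psmb6, Psmb5 and Psmb7 were 340.5, 153.7 and 70.4 CPM, in the same order.

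Among the ATPases, Psmc3 was the most read member of all, with 326.2 and 387.8 CPM. Of its reads, 18 of 349 and 156 of 604 were unspliced. With complete chains only it had 326 and 437 reads, against 225 and 497 of Psmb6, which then led in replicate 2. Per kilobase the mean level of Psmc3 was 218.2 CPM, below those of Psmb6 and of Psma7 (291.2 CPM). Psmc5 followed with 199.1 and 222.1 CPM and Psmc1 with 174.8 and 179.8 CPM. Psmc6 was the least read ATPase at 73.8 and 91.8 CPM. Of the other cap subunits, the large scaffold Psmd2 had 312.2 and 211.9 CPM, Psmd8 had 218.7 and 250.4 CPM, and Psmd12 had 215.9 and 229.8 CPM. Psmd14, the deubiquitinase that clips ubiquitin chains off the substrate, was the lowest at 73.8 and 60.3 CPM. The constitutive subunits assemble in fixed numbers, and by reads the 31 of them spanned a 9.18-fold range of CPM in replicate 1 and a 6.43-fold range in replicate 2. Their order was alike in the libraries (Spearman's rho 0.83 across these 31 genes, which share the 2 libraries; a description). The median core subunit stood at 0.618 of the median cap subunit in replicate 1 and at 0.916 in replicate 2. With CPM divided by transcript length in kilobases, the mean of this ratio was 0.875 in place of 0.767.

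Regulators were read far less. The cap assembly chaperones Psmd5, Psmd9 and Psmd10 had mean levels of 21.8, 20.8 and 14.1 CPM, and the core assembly chaperones Psmg2, Psmg4 and Psmg1 had 22.0, 19.6 and 12.9 CPM. The remaining chaperone, Psmg3, had 5 and 15 reads. Among activators, Psme1 and Psme2, which form the interferon-inducible alternative cap, had 14.0 and 19.9 CPM and 26.2 and 36.0 CPM. The nuclear activator Psme3 had 22.4 and 11.6 CPM, and the large single-chain activator Psme4 had 21.5 and 17.3 CPM. Psme2b, a copy of Psme2, had 0 and 1 read, so how reads of the pair were divided is uncertain. Psmf1, a core-binding inhibitor, had 14.0 and 23.1 CPM. All of these counts were at or under 56 reads per library, and their intervals are correspondingly wide in the plot of levels.

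The inducible catalytic subunits were rare beside the subunits they replace. Psmb8, the counterpart of Psmb5, had 11 reads in replicate 1 and 18 in replicate 2 (10.3 and 11.6 CPM). It made up 8.03% of the reads of its pair in replicate 1 (11 of 137, 4.08 to 13.9%) and 6.79% in replicate 2 (18 of 265, 4.08 to 10.5%). Psmb10, the counterpart of Psmb7, had 9 and 12 reads and made up 13.8% (9 of 65, 6.53 to 24.7%) and 6.49% (12 of 185, 3.40 to 11.1%). Psmb9, the counterpart of Psmb6, had 0 of 229 reads in replicate 1 (0 to 1.60%, or up to 1.31% by the limit of 3 reads). In replicate 2 it had 3 of 516 (0.581%, 0.12 to 1.69%). Within each pair the intervals of the libraries overlap. Over all 6 genes the inducible share was 4.64% (20 of 431, 2.86 to 7.08%) and 3.42% (33 of 966, 2.36 to 4.76%). By mean CPM, Psmb5 was 12.6-fold above Psmb8 and Psmb7 10.3-fold above Psmb10. Per kilobase the mean levels were 153.7 CPM for Psmb5, 6.71 CPM for Psmb8, 70.4 CPM for Psmb7 and 6.15 CPM for Psmb10. The thymus-specific Psmb11 and the testis-specific Psma8 had no read.

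**Figure D2:**
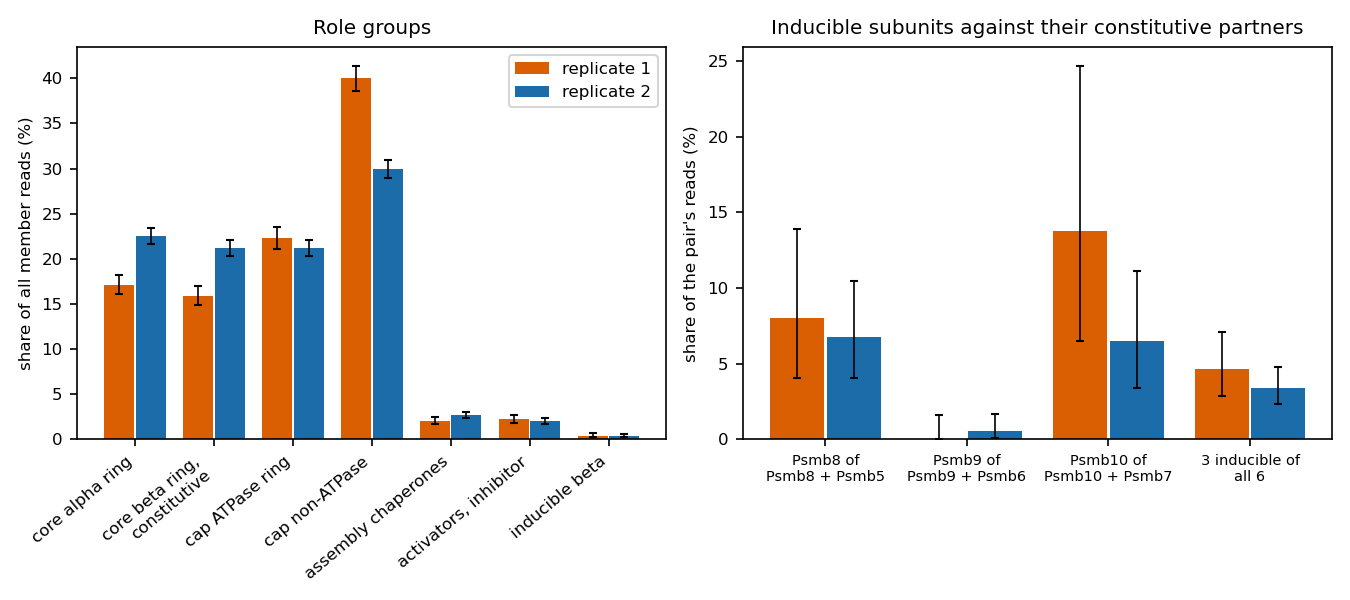
Left, share of all member reads (%) held by each role group in replicate 1 (orange) and replicate 2 (blue). Right, share of each pair's reads (%) held by the inducible beta subunit. Bars carry 95% Clopper-Pearson intervals. The core rings are higher and the non-ATPase cap subunits lower in replicate 2, and all inducible shares are at or below 13.8%.

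Part of the Psmb8 count came from unspliced reads. Of its reads, 8 of 11 and 9 of 18 carried the annotated chain of introns, while 2 and 9 were unspliced reads within the gene. With complete chains only, the mean share of Psmb8 in its pair was 5.22% in place of 7.41%, and the summed inducible share was 3.12% in place of 4.03%. Markers of white blood cells, which carry the immunoproteasome without stimulation, were also read: 20 of 23 leukocyte markers had reads, and the list summed to 126.2 and 165.6 CPM. The most read of them were Lyz2 with 33 and 80 reads, Cd74 with 15 and 30, C1qc with 11 and 31, and C1qa with 13 and 25. Ptprc, which marks all leukocytes, had 0 and 1 read, and Cd3e, S100a8 and S100a9 were at 0. The part of these cells in the inducible reads was not tested. Of 18 antigen presentation and interferon response genes, 15 had reads, 10 could be tested between the libraries, 0 passed as higher and 2 as lower in replicate 2. Of all 8892 genes tested in the same way, 11.1% were higher and 14.9% lower. The 2 lower genes were H2-D1 with 150 and 133 reads and H2-K1 with 15 and 6 reads. The interferon-induced Isg15 and the class I transactivator Nlrc5 had 0 reads in both libraries.

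The promoters of Psmb5 and Psmb8 are shown because this pair swaps the same catalytic site while differing in reads. Both are RefSeq windows (GRCm38.p6) of 250 bases before to 50 bases after the start, Psmb5 at chr14:54617946-54618245 on the minus strand and Psmb8 at chr17:34197945-34198244 on the plus strand. Capitals mark matches, on either strand, to TGACNNNGC (antioxidant response element core), to the interferon-stimulated response element core (GAAA, any 2 bases and GAAA) and to TTCNNNGAA (gamma-activated site, the same on both strands).
Psmb5: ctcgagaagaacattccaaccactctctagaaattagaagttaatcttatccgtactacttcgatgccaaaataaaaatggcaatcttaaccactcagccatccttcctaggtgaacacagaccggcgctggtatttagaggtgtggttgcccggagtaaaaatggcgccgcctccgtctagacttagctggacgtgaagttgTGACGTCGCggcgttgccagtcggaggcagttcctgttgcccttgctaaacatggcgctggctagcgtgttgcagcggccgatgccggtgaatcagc
Psmb8: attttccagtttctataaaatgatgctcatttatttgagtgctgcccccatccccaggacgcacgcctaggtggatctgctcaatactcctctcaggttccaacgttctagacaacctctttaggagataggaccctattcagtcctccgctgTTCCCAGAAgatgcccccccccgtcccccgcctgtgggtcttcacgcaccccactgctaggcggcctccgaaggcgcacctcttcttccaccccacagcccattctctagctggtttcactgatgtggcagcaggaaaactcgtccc
The Psmb5 window held TGACNNNGC beginning 47 bases before the start, and the Psmb8 window held TTCNNNGAA beginning 97 bases before it. Windows were found for 42 of the 50 genes, 45 windows in all. Of these, 6 (13.3%) held TGACNNNGC against 12.4% of all 32851 windows, 5 (11.1%) held the interferon-stimulated core against 3.44%, and 3 (6.67%) held TTCNNNGAA against 8.30%. The 5 genes with that core were Psmb3, Psmd4, Psmd9, Psme1 and Psmg4, none of them an inducible beta subunit. The RefSeq start of Psmb8, 34198195, lies inside the annotated first exon of Psmb8-201, chr17:34197790-34198545, so its window overlaps transcribed sequence. A match describes letters in these windows and no binding.

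Most proteasome reads followed 1 annotated chain of introns per gene. For each gene the annotated chain with the most reads was taken as its reference. Of the members' reads, 85.8% in replicate 1 and 79.1% in replicate 2 carried it (82.4 ± 4.74%, SD, n = 2). Over 8295 protein-coding genes the shares were 61.5% and 67.3%. These shares pool the reads of all genes, so much-read genes such as Atp2a1 (168943 and 87863 reads) weigh most in them. No median per gene of this share was taken over all genes. The median gene among the 45 with 10 or more reads had 88.3% of its reads in that chain, and 18 of the 45 had 90% or more. Other complete chains held 5.26% and 4.91% of members' reads, and chains lacking introns at the 5′ end held 6.74% and 11.0%. Unspliced reads held 1.27% and 4.52%. Of the reads lacking 5′ introns, Psmc2, Psma7 and Psmb6 held 85, 69 and 28 of 319 in replicate 1. In replicate 2 they held 171, 289 and 130 of 917. Over both libraries, the median member had 2.70% of its reads in such chains, against 3.73% over the 8295 genes. A share of 40% or more was seen in 3 of 45 members (6.67%), against 3.36% of the 8295 genes. By the deposited classes, members had 1.18% and 0.851% of their reads in new combinations of known splice sites (NIC) and 2.32% and 2.19% in chains with a new splice site (NNC). Complete chains outside the annotation were mostly single reads: of 232 such chains, 181 had 1 read and 4 had 10 or more.

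**Figure D3:**
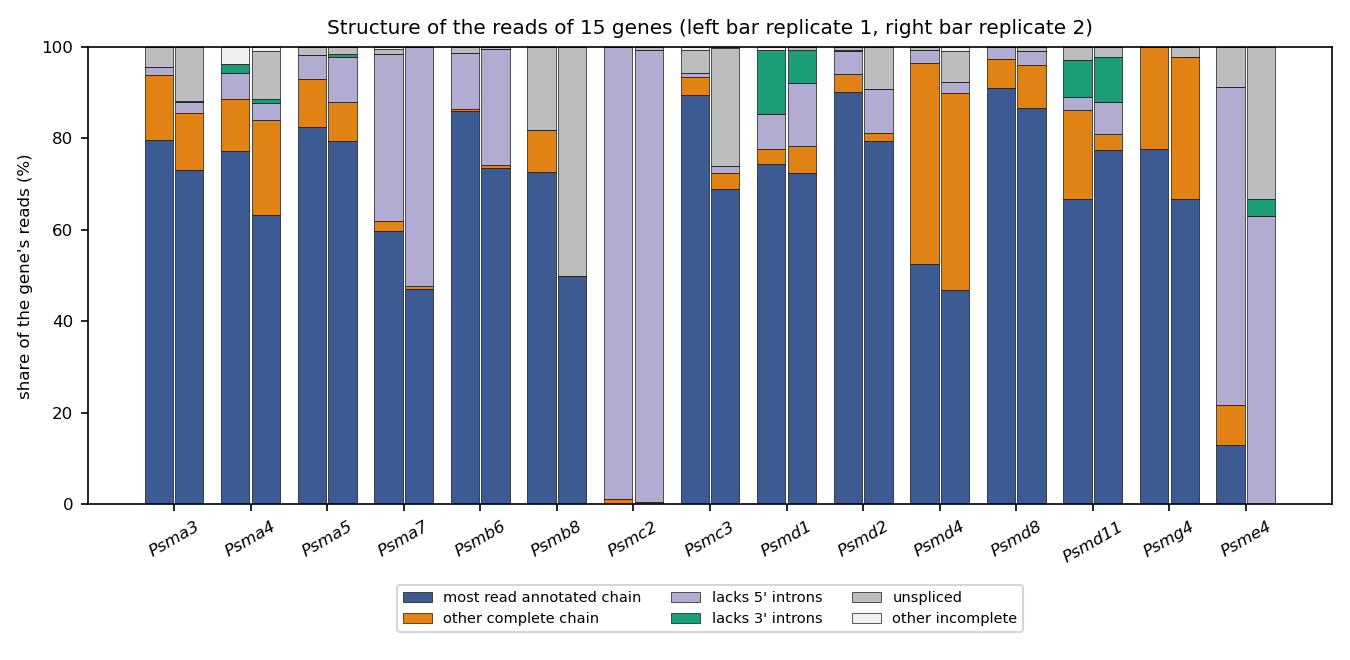
Share (%) of the reads of 15 genes by structure, with replicate 1 as the left and replicate 2 as the right bar of each pair. Psmc2 has almost no complete chain, Psma7 divides between its full chain and a chain lacking 5′ introns, and Psmd4 divides between a pair of complete chains.

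Psmd4 was the member with the most even use of annotated isoforms. It encodes a ubiquitin receptor of the cap and lies at chr3:95032694-95042614 on the minus strand of mm10. Psmd4-202 had 73 reads in replicate 1 and 116 in replicate 2, which was 54.5% (45.7 to 63.1%) and 52.3% (45.5 to 59.0%) of complete reads. Psmd4-201 had 52 and 97 reads, or 38.8% and 43.7%. The shares of the leading chain did not pass the test between libraries (Fisher's exact test, two-sided, adjusted p = 1.00). The isoforms differ by 9 coding bases, chr3:95033909-95033917, which Psmd4-201 keeps at the end of an exon through a later donor site. They are shown in the direction of transcription, with the 9 bases of Psmd4-201, and the bases on either side of the join in Psmd4-202, in capitals (GENCODE M21 transcripts, mm10).
Psmd4-201: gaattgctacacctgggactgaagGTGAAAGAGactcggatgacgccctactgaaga
Psmd4-202: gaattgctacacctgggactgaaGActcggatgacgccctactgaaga
The difference is a multiple of 3, so the reading frame goes on unchanged beyond it.

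Psmd8 had the most read complete chain outside the annotation. The gene encodes a small scaffold subunit of the cap and lies at chr7:29174188-29180701 on the minus strand. Its annotated chain had 213 and 338 reads. The unannotated chain had 12 and 31 reads, or 5.26% and 8.27% of complete reads, and was present in both libraries. It joins the first exon to a point inside the fourth exon, so it lacks the second exon of 73 bases, the third of 103 bases and 34 bases of the fourth. The bases that it lacks, 210 in all, are coding and a multiple of 3. They are in capitals in the annotated transcript, and the bases on either side of the new join are in capitals in the chain.
Psmd8-201: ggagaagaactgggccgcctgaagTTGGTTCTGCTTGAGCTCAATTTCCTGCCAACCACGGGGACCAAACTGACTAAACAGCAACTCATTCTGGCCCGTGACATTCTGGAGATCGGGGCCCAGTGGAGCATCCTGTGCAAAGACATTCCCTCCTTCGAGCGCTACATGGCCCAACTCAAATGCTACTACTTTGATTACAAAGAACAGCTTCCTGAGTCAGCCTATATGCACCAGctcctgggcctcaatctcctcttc
Psmd8 unannotated chain: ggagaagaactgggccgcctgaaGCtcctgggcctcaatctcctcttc
The missing stretch ends in AG, the letters that usually end an intron, and the same 2 letters stand just before the join. A direct repeat of 2 bases is the longest at this join.

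Psma3, an alpha subunit at chr12:70974621-70996347 on the plus strand, had 2 minor chains that the annotation marks as targets of nonsense-mediated decay. Its coding transcript Psma3-202 had 185 and 337 reads, 84.9% and 85.3% of complete reads. Psma3-201 had 13 and 27 reads, or 5.96% and 6.84%. It uses a later acceptor and lacks 5 coding bases, chr12:70983319-70983323, which shifts the frame. These 5 bases are in capitals in Psma3-202.
Psma3-202: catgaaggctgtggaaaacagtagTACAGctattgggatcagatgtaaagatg
Psma3-201: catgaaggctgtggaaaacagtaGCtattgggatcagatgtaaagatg
Psma3-206, the other, adds 24 bases at chr12:70978816-70978839 and had 4 and 6 reads. Psmg4, a core assembly chaperone at chr13:34162964-34178173 on the plus strand, had an exon that was present or skipped. Psmg4-202, which holds the exon of 76 bases at chr13:34166061-34166136, had 7 and 32 reads. Psmg4-201, which skips it, had 2 and 14 reads, or 22.2% and 29.8% of complete reads. The exon is in capitals with its neighbours on either side.
Psmg4-202: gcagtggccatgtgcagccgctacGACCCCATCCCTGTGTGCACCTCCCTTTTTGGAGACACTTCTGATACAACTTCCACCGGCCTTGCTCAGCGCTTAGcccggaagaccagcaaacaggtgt
With 76 bases, not a multiple of 3, the 2 isoforms end in different reading frames.

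Other chains outside the annotation changed the beginning of the transcript or added an exon. Psmd11, a cap scaffold subunit, had 92 and 110 reads in Psmd11-201, or 70.8% and 85.9% of complete reads. A chain that begins in an unannotated exon of 124 bases, chr11:80442698-80442821 within the third intron, had 20 and 5 reads. It leaves out the first 3 exons, which hold the annotated start codon. Psmd11-214, which keeps the last intron of 115 bases beyond the stop codon, had 11 and 13 reads. The difference in the share of Psmd11-201 did not pass the test (Fisher's exact test, adjusted p = 0.142). Psma4 had a chain with 4 and 16 reads that adds an exon of 85 bases, chr9:54951344-54951428, ahead of the start codon. That exon is annotated in Psma4-207, whose chain ends earlier. Psma5 had a chain with 4 and 6 reads that adds an unannotated exon of 204 bases, chr3:108275724-108275927, between its last 2 coding exons. Among less read members, Psmb10-205 (a retained-intron transcript) had 2 and 1 read against 4 and 7 of Psmb10-201, and Psmd10-202 had 0 and 4 against 14 and 17 of Psmd10-201.

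Psmc2, an ATPase at chr5:21785283-21803787 on the plus strand, had no read of its annotated chain. Instead 85 of 86 reads in replicate 1 (98.8%, 93.7 to 100%) and 167 of 173 in replicate 2 (96.5%, 92.6 to 98.7%) carried all its introns but the first. The deposited model of these reads starts with the second exon, chr5:21786650-21786884, and lacks the first, chr5:21785283-21785517. Such models take their ends from the annotation: of 219 member models lacking 5′ introns, 209 began on an annotated exon bound, so where in the second exon the reads begin is not known. The annotated start codon lies in that exon, at 21786689. RefSeq places a start for Psmc2 in the same exon, at 21786747, beside one at the first exon, at 21785275. The former lies 58 bases after the first base of that start codon, so a transcript from it would lack the codon. Both windows are printed because the reads hold the second exon and not the first.
Psmc2, first exon, chr5:21785025-21785324: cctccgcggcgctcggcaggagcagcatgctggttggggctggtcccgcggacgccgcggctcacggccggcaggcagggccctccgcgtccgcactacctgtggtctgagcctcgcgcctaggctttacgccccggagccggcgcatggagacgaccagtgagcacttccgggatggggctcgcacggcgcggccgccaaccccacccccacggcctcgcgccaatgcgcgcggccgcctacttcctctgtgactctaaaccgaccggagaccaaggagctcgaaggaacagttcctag
Psmc2, second exon, chr5:21786497-21786796: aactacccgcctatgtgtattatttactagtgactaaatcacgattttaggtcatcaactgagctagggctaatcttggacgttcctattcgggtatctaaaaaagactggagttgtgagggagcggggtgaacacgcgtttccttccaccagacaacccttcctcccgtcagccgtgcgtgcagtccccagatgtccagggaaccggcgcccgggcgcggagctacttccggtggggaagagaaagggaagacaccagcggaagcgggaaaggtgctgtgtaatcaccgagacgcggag
Neither window held any of the 3 motifs named above. The other motif searched, CCAAT (the NF-Y box), stood at -28 from the start in the first window and was not in the second. It was in 15 (33.3%) of the members' windows and in 37.4% of all windows. Counting the Psmc2 chain by annotated or complete chains alone therefore leaves this ATPase with at most 1 read in each library.

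Psma7 and Psmb6 also had large shares of reads lacking their 5′ introns. In Psma7 the full chain had 113 and 261 reads, and a chain of its last 4 exons had 68 and 288 reads, or 36.0% (29.1 to 43.3%) and 52.0% (47.7 to 56.2%) of the gene's reads. The deposited model of this chain starts with an internal exon, chr2:180038065-180038187, and does not hold the start codon. In Psmb6 the full chain Psmb6-201 had 197 and 377 reads, and Psmb6-202 had 27 and 116 reads. Psmb6-202 is annotated as a retained-intron transcript with a single intron, which is also the last intron of Psmb6-201, so reads cut short at the 5′ end have the same chain. Of 11 members tested, Psmb6 alone passed for its leading chain share between libraries, at 87.6% (82.5 to 91.6%) and 75.9% (71.8 to 79.6%; Fisher's exact test, two-sided, adjusted p = 0.0205). Over all 1818 genes tested, 1.43% passed. Psmb6 was also the single member that passed with annotated chains only, with 50 or more reads per library, or with annotated splice sites only, where 1.60%, 3.04% and 1.20% of genes passed. These settings all keep the annotated chain of Psmb6-202, so they cannot tell that transcript from reads cut short. Chains lacking 5′ introns were also more common in replicate 2 over the 8295 protein-coding genes, at 6.24% and 8.15%. The part of incomplete reads in the Psmb6 and Psma7 shares was not tested. Psme4, with 46 introns the longest member, had 16 of 23 and 17 of 27 reads lacking 5′ introns, and 3 and 0 reads of its full chain.

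Between the libraries, core subunits differed in a single direction and cap subunits in both. Reads of each gene were compared with Fisher's exact test (two-sided, Benjamini-Hochberg adjustment over all 8892 genes with 10 or more reads, threshold 0.05). Of 45 members tested, 14 were higher in replicate 2, 4 were lower and 27 did not pass. Of all genes tested, 11.1% were higher and 14.9% were lower. Among the 14 core subunits, 12 were higher and 0 lower, with Psma4 (log2 ratio 0.45) and Psma6 (0.34) not past the threshold. Among alpha subunits the calls were Psma1 with 80 and 182 reads, Psma2 with 93 and 243, Psma3 with 232 and 461, Psma5 with 57 and 132, and Psma7. All 7 beta subunits were called, among them Psmb1 with 101 and 279 reads, Psmb2 with 114 and 233, Psmb3 with 89 and 216, and Psmb4 with 38 and 107. Psmb5, with 126 and 247 reads, had the smallest called ratio of the core (0.43). The largest ratios of the core were those of Psmb7, with 56 and 173 reads (log2 ratio 1.08, adjusted p = 4.98e-06 by Fisher's exact test), and Psma7, with 189 and 554 reads (1.01, adjusted p = 1.28e-16). With complete chains only, the ratio of Psma7 was 0.63, below those of Psmb7 (0.97), Psmb4 (0.92), Psmb1 (0.88), Psma2 (0.77) and Psmb3 (0.69). Among the 17 cap subunits, Psmc3 was higher, with 349 and 604 reads (0.25, adjusted p = 0.0409). The scaffolds Psmd1 and Psmd2 were lower, with 157 and 138 reads (log2 ratio -0.73) and 334 and 330 reads (-0.56). Also lower were Psmd3, with 114 and 107 reads (-0.63), and Psmd11, with 138 and 142 reads (-0.50). Psmg4, with 9 and 48 reads, was the other higher member (1.81, adjusted p = 6.17e-04). The median log2 ratio was 0.65 over the core, 0.09 over the cap, 0.34 over the 45 members and -0.18 over all genes.

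These calls rest on counting error alone and depend on how the libraries are scaled. With TMM scaling, 21 members were higher and 2 lower, against 14.1% and 9.78% of all genes, and DESeq2 size factors gave the same member counts against 14.3% and 9.60%. All 14 core subunits were then higher, as were 6 of 17 cap subunits, with 2 cap subunits lower. With edgeR's exact test at an assumed dispersion of 0.04, which stands for variation between animals, 0 members were higher and 0 lower, against 1.18% and 1.07%. Under the other settings 11 to 15 members were higher and 3 or 4 lower. The 15 came with a minimum of 50 reads, where Psmc2 (adjusted p = 0.0519 as reported, 0.0316 there, both by Fisher's exact test) passed as well. Their shares of all genes higher and lower were 5.67% and 7.44% with no count minimum, 21.5% and 25.5% with a minimum of 50 reads, 9.37% and 20.2% with complete chains, and 9.84% and 18.4% with annotated transcripts.

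Transcript length moved with this difference across the whole transcriptome. Genes with transcripts of up to 1000 bases had a median log2 ratio of 0.79 and those over 5000 bases one of -0.67, and core transcripts (median 1162 bases) are shorter than cap transcripts (median 1607 bases). Over the 31 constitutive subunits the log2 ratio fell with length (Spearman's rho -0.54, across genes that share the 2 libraries; a description). After the trend over all genes was removed (exact binomial test against the trend), 6 members were higher and 0 lower, against 7.48% and 5.45% of all genes. The 6 were Psma2, Psma3, Psma7, Psmb1, Psmb7 and Psmf1. The ratios of Psmb2, Psmb5 and Psmb6 changed sign to -0.12, -0.15 and -0.04. The length used is that of the most read complete chain, as annotated where that chain is annotated. For Psmc2, which had no annotated read, it is the 1607 bases of an unannotated complete chain, also the cap median. For Psma2 (2911 bases) and Psma3 (2846 bases) the length used is far above the coding length of 702 and 765 bases. It is also above the coding length for Psmb1 (1758 against 720 bases) and Psmf1 (3809 against 813 bases). The trend on coding length was then removed in place of that on annotated length, an alternative chosen after seeing the data. In that setting 15 members were higher and 0 lower, against 8.13% and 6.87% of all genes. Psmf1 was not among them (adjusted p = 0.351 by an exact binomial test), nor had it passed as reported (adjusted p = 0.265 by Fisher's exact test). Of the 15 higher members, 9 were core subunits, 5 were cap subunits and 1 was Psmg4. All 14 core ratios were then above 0 (median 0.55), as were 13 of 17 cap ratios (median 0.33). Over all 45 members 38 were above 0 (median 0.40), against 50.4% of all genes. The 4 lower calls of Psmd1, Psmd2, Psmd3 and Psmd11 were lost under both lengths. Psmc3 had 18 and 156 unspliced reads, and with complete chains only its log2 ratio was -0.12.

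**Figure D4:**
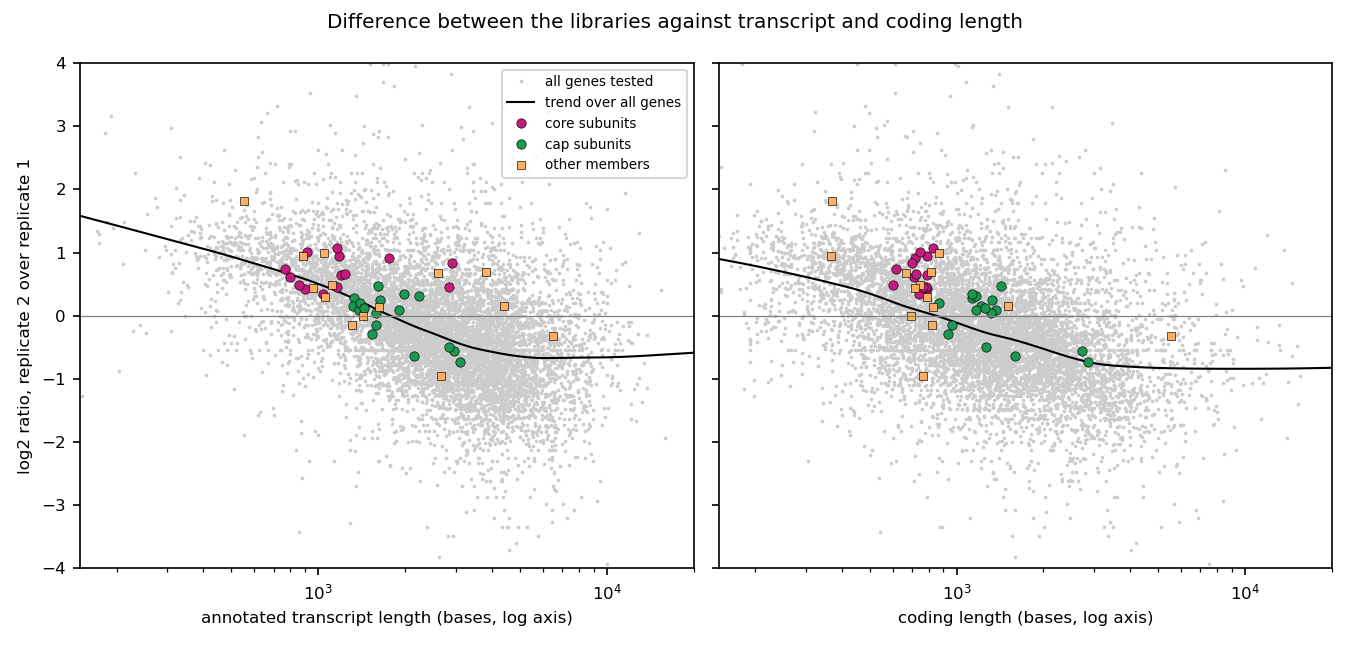
Log2 ratio of replicate 2 over replicate 1 against annotated transcript length (left) and coding length (right), both on log axes in bases, for all genes tested (grey) and the members (coloured), with the lowess trend over all genes as a line. Where the most read complete chain is unannotated, as in Psmc2, the left panel uses the length of that chain. Core subunits (pink) lie around the trend on the left, with a median of 0.30 above it, and all 14 lie above it on the right, with a median of 0.55. Of the 17 cap subunits, 13 also lie above the trend on the right, and the cap median is 0.33.

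Proteins that work with the proteasome, from lists that the name rule does not cover, differed in both directions. Of 12 partner genes tested, 2 were higher in replicate 2, 2 were lower and 8 did not pass. Of all genes tested, 11.1% were higher and 14.9% lower. Pomp, the chaperone that matures the core, had 153 and 363 reads (log2 ratio 0.70) and Sem1, the smallest cap subunit, had 138 and 378 reads (0.91). Both stayed higher after the trend on annotated transcript length was removed. Ecpas, an adaptor that holds cap and core together, was lower with 208 and 130 reads (-1.22), and the proteasome-bound ligase Ube3c was lower with 48 and 29 reads. With that trend removed Ube3c did not pass (-0.61, adjusted p = 0.27 by an exact binomial test against the trend). Zfand5, which had 287 and 361 reads and did not pass as reported (-0.21), was then higher (0.45). In that setting 3 partners were higher and 1 lower, beside 7.48% and 5.45% of all genes. Of 11 tested genes of the axis around Nfe2l1, the transcription factor that drives proteasome genes when the protease is short, 0 were higher and 5 lower, beside 11.1% and 14.9% of all genes. Nfe2l1 had 334 and 176 reads (-1.46) and Vcp, the segregase that releases it from the endoplasmic reticulum, had 526 and 377 reads (-1.02). The remaining 3 were Ngly1, Sel1l and Mafg, and with the length trend removed only Nfe2l1 and Vcp of these 5 stayed lower, beside 5.45% of all genes.

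Ubiquitin itself was read more than any proteasome subunit. Ubb, a polyubiquitin gene, had 1839 and 2568 reads (1719 and 1649 CPM, log2 ratio -0.06, not past the threshold, and lower at -0.22 once the length trend was removed). Rps27a, which encodes ubiquitin fused to a ribosomal protein, was higher, with 87 and 256 reads (log2 ratio 1.01), and did not pass once the length trend was removed. Uba1, the main ubiquitin-activating enzyme, was lower with 135 and 121 reads (-0.70), and did not pass without the length trend either. Of 9 muscle ubiquitin ligases tied to atrophy, 0 were higher, 2 lower and 7 not past, a share of lower genes to be read against 14.9% of all genes. Trim54 had 360 and 519 reads, Trim63, the best-known atrophy ligase, had 134 and 196 reads (125.3 and 125.8 CPM) and Fbxo32 had 30 and 35. Asb2 with 414 and 508 reads and Fbxo40 with 231 and 162 reads were lower, the former only before the length trend was removed. Slow fibre markers, which were 3.11 higher in median log2 ratio in replicate 2, and red blood cell markers, which were at a median of -1.58, moved between the same libraries, and their part in the members' differences was not tested.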

How the data were processed

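Long-read RNA-seq tables of 2 gastrocnemius libraries were used. The deposited files hold whole-number counts per transcript model, with no normalization, and other columns with labels and exon numbers. The gene models name TALON as their source, and the assembly is mm10 with GENCODE M21, per the file headers and the notes deposited by the authors. Platform, aligner and read filters: not given in the sources used here.

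Counts were summed per gene and scaled to 1069771 and 1557594 reads without spike-ins, and models were matched between libraries by intron chain. Complete chains are annotated, NIC or NNC in either library. Each log2 ratio sets replicate 2 over replicate 1 after adding 0.5 reads. The chain test compared the leading complete chain with the others by Fisher's exact test in genes with 20 or more complete reads per library and 2 or more chains of 5 or more reads. Alternatives were TMM from edgeR 4.0.16, DESeq2 1.42.0 size factors, the edgeR exact test with dispersion 0.04, other minimums, transcript classes and removal of a lowess length trend (fraction 0.4), with coding length added after seeing the data. Rescaled and length-trend settings used an exact binomial test. Steps ran in Python 3.11.15 with scipy 1.17.1 and were tested on simulated data.

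Members and lists were chosen with earlier results of these data known. Named were the 3 most read genes of each role group, the tissue-specific and inducible subunits, members that passed a test, members with an unannotated complete chain of 10 or more reads or with 2 annotated chains of 10% or more, and, of other lists, some of the 4 most read and of those that passed, which the rule allowed but did not require. Psma6, Psmc6, Psmd14, Psme3, Psmg3, the incomplete chains of Psmc2, Psma7 and Psme4, and Isg15, Nlrc5, Ptprc, Cd3e, S100a8, S100a9 and Fbxo32 were named after their values were seen. Some genes of the ubiquitin list are not reported here.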

Additional observations from a re-analysis of the deposited data

Results flagged for a closer look

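Models of unannotated loci on the opposite strand overlapped several members. Any overlap was enough, and all reads of such a model were counted, also where it reached beyond the member. Over 2 members these reads were above the 3 reads that a count of 0 allows in both libraries. Over Psmd11 there were 13 such reads in replicate 1 and 30 in replicate 2, against 138 and 142 reads of the gene. Over Psmc2 there were 5 and 12, against 86 and 173. Over Psme4 there were 3 and 34, against 23 and 27 of the gene, so in replicate 2 the overlapping models had more reads than the gene. Over Psmc6 there were 3 and 5, against 79 and 143. These reads enter no comparison above.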

How the results depend on the processing

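The count of members higher in replicate 2 was 14 as reported and between 11 and 15 with an exact binomial test, no count minimum, a minimum of 50, complete chains, annotated transcripts or the coding length trend removed, 21 with TMM or DESeq2 scaling, 6 with the length trend removed and 0 with the edgeR exact test and dispersion 0.04. The count of lower members, 4 as reported, was 2 with TMM and with DESeq2 scaling and 0 with either length trend removed or with edgeR. Relative to total reads, all log2 ratios were shifted up by 0.17 under TMM and 0.18 under DESeq2. Reversed ratios were those of Psmb2 (-0.12), Psmb5 (-0.15) and Psmb6 (-0.04) with the length trend removed, of Psmd1 (0.01) and Psmd2 (0.15) with the coding length trend removed, and of Psmc3 with complete chains (-0.12) or annotated transcripts (-0.14). The summed level was 4176 CPM with annotated transcripts. The inducible share of members' reads was 0.335% with complete chains and 0.316% with annotated transcripts, in place of 0.409%. The Psmb8 share was 5.22% and 4.86%, and the summed inducible share 3.12% and 2.85%, under the same settings. The cause of these moves was not tested. The chain test called 1 member under each of its 3 alternatives. Leaving out a library gave the values of the other, printed above. No paired analysis was possible because there is 1 group.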
